A study of Arabidopsis thaliana with 9 samples.

Results

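The data described here are the 6 RNA-seq libraries in which Arabidopsis seedlings given ethidium bromide (EtBr) were set against seedlings given water, 3 libraries in each group, out of 9 libraries in the series; the remaining 3 came from doxycycline-treated seedlings and are not used. All seedlings were wild type of the ecotype Col-0, grown on Murashige and Skoog medium and collected whole at 7 d of age after treatment. The labels give neither the EtBr dose nor the length of treatment, and nothing says whether the 3 libraries of a group came from separate cultures, so the p-values measure the spread between these libraries, which may be technical. Genes were taken into the comparison when their mean over the 6 libraries was at least 10 normalized counts (read counts divided by 1 size factor per library), which kept 21937 of the 28956 genes of the table.

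Ethidium bromide is a flat cationic dye that slides between the bases of DNA; it gathers in mitochondria and has long been used to disturb replication and transcription of mitochondrial DNA. Plant cells answer to mitochondrial disturbance by mitochondrial retrograde signalling, in which NAC transcription factors of the ER membrane, among them ANAC013 and ANAC017, are released, enter the nucleus and switch on alternative oxidase, chaperones and detoxification enzymes through a short promoter element called the mitochondrial dysfunction motif. DNA breaks are answered through a different NAC factor, SOG1, which is phosphorylated by the kinases ATM and ATR and acts on repair and cell cycle genes.

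The 6 libraries held between 17724164 and 20330871 reads in genes. EtBr libraries had reads in 27571, 27311 and 26503 genes, against 22744, 22456 and 23040 in water libraries. On log2 values the first principal component held 86.7% of the variance and separated EtBr from water, and the second held 5.37% and spread the libraries within each group, setting EtBr library 3 apart from the other EtBr libraries and water library 1 apart from water library 2. Within groups, correlations of log2 values were 0.956 to 0.981 among EtBr libraries and 0.971 to 0.980 among water libraries, and no pair of libraries agreed to within sampling noise. The 7 photosynthetic marker genes, which whole green seedlings express strongly, summed to 598462, 663237 and 407309 normalized counts in EtBr libraries, against 819629, 785483 and 777822 in water libraries. These are bulk samples, in which fewer cells of a type and less RNA per cell cannot be told apart.

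Most tested genes changed. At a limma adjusted p under 0.05, 7579 genes were higher in EtBr seedlings (34.5% of those tested) and 6091 were lower (27.8%), together 62.3%, while 8267 did not pass. Each count of list members given below is to be read beside these shares. At least 2-fold changes numbered 5436 upward and 3660 downward, and changes of at least 16-fold 1570 upward and 43 downward. The median log2 change over the tested genes was 0.09. Direction differed by level: among 4398 genes with a mean of 10 to 50 the median log2 change was 1.29, with 49.8% higher and 11.9% lower. Among 555 genes above 5000 it was -0.29, with 23.1% higher and 40.4% lower. Genes with few or no water reads could pass the minimum of 10 only by being high in EtBr, which bears on the lowest levels. Of the tested genes 778 had no read in any water library, all called higher, and 1 had none in any EtBr library. The 100 genes with the highest mean level took 13.9%, 14.7% and 12.9% of the reads in EtBr libraries, against 19.1%, 18.0% and 18.1% in water libraries.

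**Figure D1:**
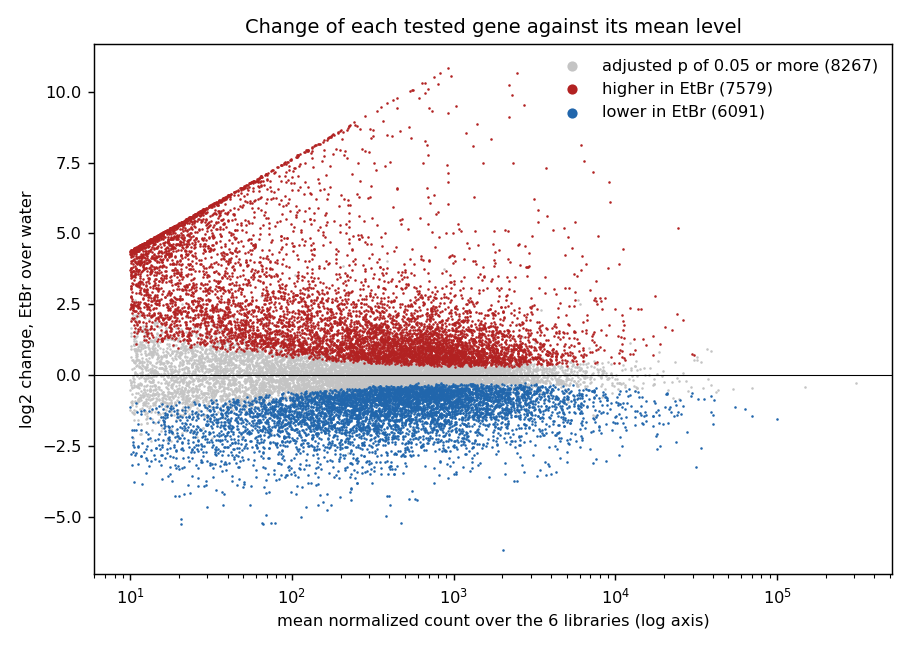
Each point is a tested gene, with its mean normalized count over the 6 libraries on a log axis against its log2 change in EtBr over water, coloured by call. The 7579 higher genes reach past 10 on the log2 scale and crowd at low levels, and the 6091 lower genes rarely pass -5.

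Among genes read in EtBr and water libraries alike, with a mean of 50 or more, the largest rise was that of HRE2, an ethylene response factor of the hypoxia response (AT2G47520, minus strand of chromosome 2, 19502776 to 19503702 in TAIR10.1). HRE2 had 4087, 5766 and 4871 normalized counts in the EtBr libraries, against 1.06, 3.06 and 2.18 in the water libraries, a log2 change of 10.67 ± 0.30 (± SE, as throughout) with a limma adjusted p of 9.3e-07. Among the 10 largest rises were also AT3G58150, which encodes a protein of the optic atrophy 3 family, with 4159.6, 4539 and 5010.4 in EtBr libraries and 3.18, 2.04 and 7.63 in water libraries; FOX2, a berberine bridge enzyme-like oxidase, with 1660.3, 1962 and 12738 in EtBr and 12.7, 0 and 6.54 in water libraries; and CAD8, an alcohol dehydrogenase of the cinnamyl type, with 818, 1190.1 and 4207 in EtBr and 0, 1.02 and 4.36 in water libraries. FOX2 and CAD8 were several times higher in EtBr library 3 than in the other 2 EtBr libraries. AT5G24640, an uncharacterized protein, had 3770.0, 4400.0 and 5056 in EtBr libraries and 1.06, 21.4 and 0 in water libraries. The other 5 (AT5G54450, AT4G34300, ASK13, AT1G70400 and AT3G54520) had a single read each across the 3 water libraries. ASK13, a SKP1-like subunit of ubiquitin ligases, stood at 1279.5, 1465 and 1405 in EtBr libraries, against 0, 1.02 and 0 in water libraries.

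Falls were smaller. NPF7.3 (NRT1.5, AT1G32450), which loads nitrate into the xylem, fell the most: 50.1, 73.6 and 42.3 normalized counts in EtBr libraries, against 3784, 3622 and 4625 in water libraries, with a log2 change of -6.18 ± 0.22 and a limma adjusted p of 1.3e-06. WRKY49 had 14.1, 33.1 and 22.2 in EtBr libraries and 1519.8, 664 and 602 in water libraries. SLAH1, an anion channel of the root stele, had 0.879, 8.28 and 1.01 in EtBr and 153, 81.6 and 146 in water libraries, and KNAT7, a homeobox regulator of secondary walls, 7.91, 7.36 and 0 in EtBr and 99.5, 113 and 187 in water libraries. ERF017 had 6.16, 12.9 and 15.1 in EtBr libraries, against 311, 298 and 341 in water libraries. In all 5 the highest EtBr value lay below the lowest water value. Over all tested genes, the groups did not overlap in 37.7% with EtBr above and in 30.7% with EtBr below.

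**Figure D2:**
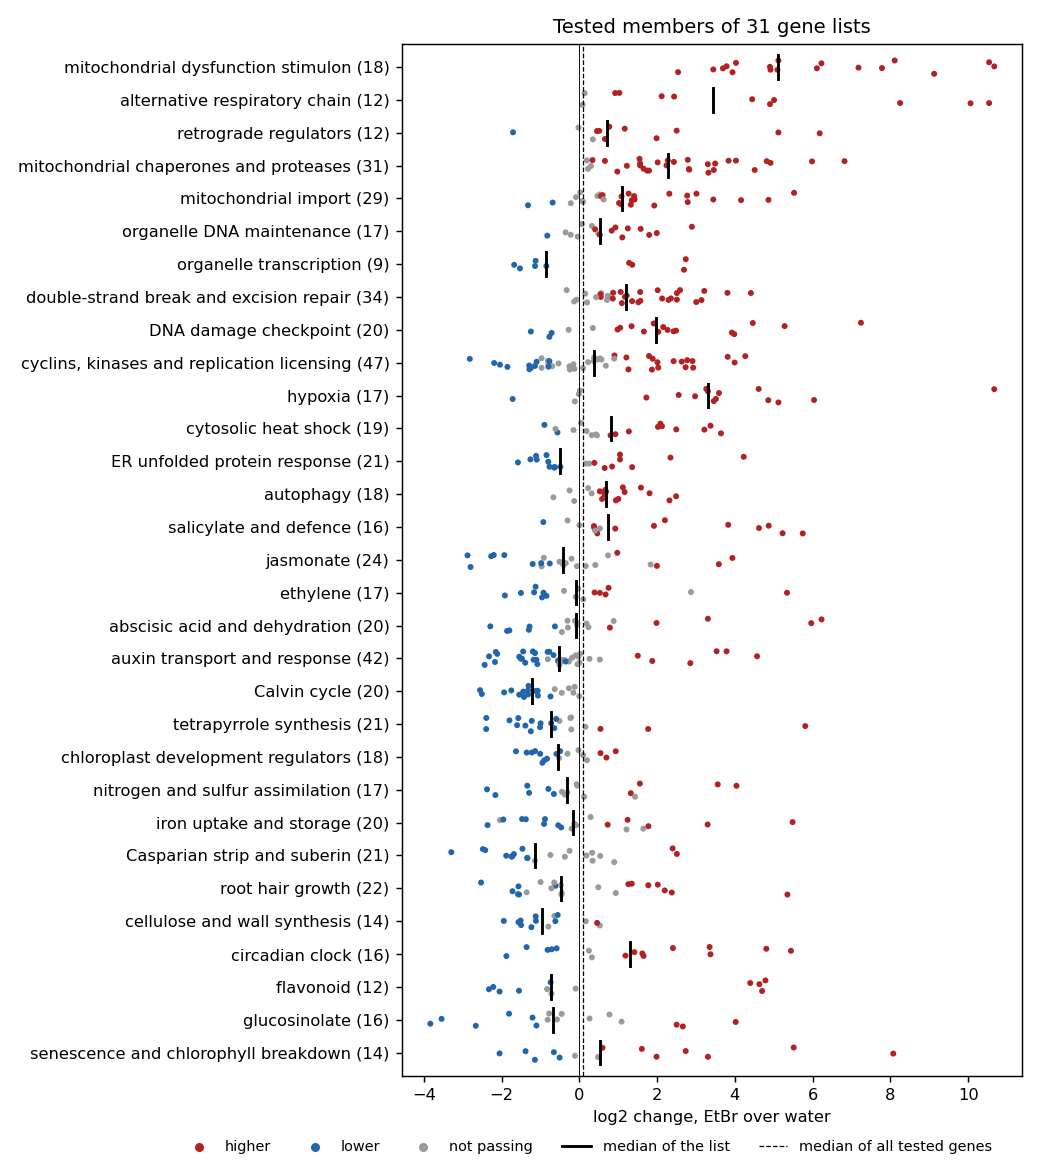
Tested members of 31 gene lists by their log2 change in EtBr over water, with the list median as a black bar, the median of all tested genes (0.09) as a dashed line and the number tested in parentheses. The mitochondrial stress lists at the top and the hypoxia list lie to the right, and the Calvin cycle, Casparian strip and wall synthesis lists lie to the left.

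The listed genes that are held to mark mitochondrial dysfunction were all higher. Like the other lists, this one was written with earlier results of these data known, so its count is no independent test. HRE2 also stands in the hypoxia list, and HSP23.5 also in the list of mitochondrial chaperones. All 18 tested members of the stimulon rose and their median log2 change was 5.11, beside 0.09 over all tested genes; the summed level of the list was 127153, 130308 and 148731 normalized counts in EtBr libraries, against 5377, 5490.1 and 5362 in water libraries. UPOX, a small mitochondrial protein known for its response to oxidants, had 9557, 11864 and 15059 in EtBr libraries, against 25.4, 66.3 and 44.7 in water libraries, a log2 change of 8.11 ± 0.32 (limma adjusted p = 1.8e-06). DTX3, a multidrug efflux carrier, stood at 14776, 14044 and 14579.8 in EtBr libraries and 78.3, 177 and 69.7 in water libraries. SOT12, a sulfotransferase, had 18753, 17495 and 18422 in EtBr and 238, 363 and 210.3 in water libraries, and the cytochrome P450 gene CYP81D8 5782, 5402 and 7456 in EtBr and 59.3, 115 and 78.5 in water libraries. UGT74E2, which glucosylates indole-3-butyric acid, had 4554, 4099 and 4544 in EtBr libraries and 2.117, 35.7 and 3.27 in water libraries. AT12CYS-2, a protein with paired cysteine motifs, had 1258, 1399.8 and 1499.9 in EtBr and 5.29, 3.06 and 8.72 in water libraries. The smallest change of the list was that of OM66, an ATPase of the outer mitochondrial membrane, at 7103, 7224 and 8734 in EtBr libraries and 1498, 961 and 1586 in water libraries (log2 change 2.54 ± 0.20, limma adjusted p 2.4e-05). In each of these genes all 3 EtBr libraries lay above all 3 water libraries.

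Of the regulators of this response, 9 of 12 rose and 1 fell, with a median log2 change of 0.71. ANAC013 had 4129, 3419.6 and 4516 in EtBr libraries, against 124, 99 and 121 in water libraries (log2 change 5.12 ± 0.16). ANAC017, which acts upstream of it and is controlled by release from the ER, rose by 0.51 ± 0.16 on the log2 scale, with 1583, 1564 and 2032 in EtBr libraries and 1446, 1071 and 1122 in water libraries (limma adjusted p = 0.024). The ANAC017 call was lost with the median change set to 0 (0.42) and without EtBr library 3, water library 2 or water library 3, at log2 changes of 0.39, 0.43 and 0.46. ANAC053 rose by 1.17 ± 0.13 and ANAC016 by 1.98 ± 0.24. RCD1, which binds and restrains ANAC013 and ANAC017, rose to 15208, 11942 and 12547 in EtBr libraries, against 7923, 8074 and 7189.9 in water libraries. WRKY63, an activator of mitochondrial stress genes, stood at 327, 426 and 559 in EtBr libraries and 8.47, 3.06 and 4.36 in water libraries. WRKY40, known as their repressor, fell to 2928, 3179 and 2542 in EtBr libraries, against 8456, 10159.7 and 9581 in water libraries (log2 change -1.71 ± 0.14, limma adjusted p = 2.9e-05). GUN1, a plastid protein of chloroplast retrograde signalling, did not pass, with 5396, 4927 and 4355 in EtBr libraries and 5955, 4400.2 and 4636 in water libraries.

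The alternative respiratory chain lets electrons bypass the proton-pumping complexes. Of its 12 tested genes 10 rose, none fell, and the median log2 change was 3.44. AOX1A (AT3G22370), the main alternative oxidase of stressed tissue, had 12970.5, 13839 and 18546 in EtBr libraries, against 404, 689 and 445 in water libraries, a log2 change of 4.90 ± 0.22 with a limma adjusted p of 2.7e-06. AOX1D had 1251, 1219 and 1508 in EtBr libraries and 5.29, 1.02 and 5.45 in water libraries. AOX1B, which lies next to AOX1A on chromosome 3, had 902, 815 and 1649 in EtBr libraries and no read in any water library; against a floor of 3 reads over the water group it was at least 1062-fold higher. The external NAD(P)H dehydrogenase NDB4 had 1164, 1455 and 1933 in EtBr libraries and likewise no water read, which puts it at least 1437-fold higher. Such floors cover counting error only. NDA1, an internal dehydrogenase, stood at 584, 692 and 923 in EtBr libraries and 26.5, 30.6 and 12 in water libraries, and NDB2 at 814, 726 and 988 in EtBr and 158, 133 and 173 in water libraries. PUMP1, an uncoupling protein, rose by 0.92 ± 0.14 on the log2 scale.

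The promoters of these genes were searched for the mitochondrial dysfunction motif in 2 forms, CTTG followed after any 5 bases by CAAG or by CACG, on both strands of the 500 bases upstream of each RefSeq gene start (TAIR10.1). A form was found in 2.035% of 21577 tested nuclear genes, in 3.133% of the genes called higher and 1.192% of those called lower, in 1.666% of those that did not pass, and in 6.485% of those higher by at least 16-fold. It was found in 4 of 18 genes of the stimulon, 4 of 12 of the alternative respiratory chain and 6 of 31 mitochondrial chaperones and proteases. AOX1A, AOX1D, ANAC013, OM66 and UGT74E2 had no match of either form in this stretch. These lists gather genes already held to answer to mitochondrial disturbance, in part through this motif, so their counts are no independent test of it. The 8 stretches below are printed because they belong to strongly changed genes of these 3 lists, and that of DTX3 holds 2 matches. Each is read 5′ to 3′ on the strand of the gene, with every match, or its reverse complement, in capitals. A match describes these letters and shows no binding, all 8 stretches lie within 245 bases of the gene start, and that of MTHSC70-1 also overlaps the neighbouring gene AT4G37920.
UPOX, chr2:9254297-9254369, plus strand: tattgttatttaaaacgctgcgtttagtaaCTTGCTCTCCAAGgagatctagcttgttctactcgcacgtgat
DTX3, chr2:1339582-1339713, minus strand: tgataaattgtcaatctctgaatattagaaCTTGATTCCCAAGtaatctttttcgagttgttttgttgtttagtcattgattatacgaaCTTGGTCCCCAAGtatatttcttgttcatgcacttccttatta
AOX1B, chr3:7903949-7904021, plus strand: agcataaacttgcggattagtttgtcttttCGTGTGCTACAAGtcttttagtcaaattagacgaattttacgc
NDA1, chr1:2204004-2204076, plus strand: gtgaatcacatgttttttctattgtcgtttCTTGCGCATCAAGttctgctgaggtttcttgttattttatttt
NDB2, chr4:2572318-2572390, plus strand: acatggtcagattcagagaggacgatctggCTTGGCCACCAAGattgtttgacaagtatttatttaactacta
HSP23.5, chr5:20891023-20891095, plus strand: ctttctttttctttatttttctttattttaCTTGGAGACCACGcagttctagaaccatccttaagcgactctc
SLP2, chr5:21956655-21956727, minus strand: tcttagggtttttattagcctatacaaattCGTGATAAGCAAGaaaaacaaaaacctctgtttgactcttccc
MTHSC70-1, chr4:17828282-17828354, minus strand: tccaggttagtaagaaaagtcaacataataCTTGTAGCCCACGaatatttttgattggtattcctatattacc

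Mitochondrial protein folding and import genes rose widely. Of 31 chaperones, proteases and membrane scaffold proteins 28 rose and none fell (median log2 change 2.27), and the list summed to 94488, 96943 and 110052 in EtBr libraries, against 17953, 21317 and 19458 in water libraries. SLP2 (AT5G54100), a stomatin-like scaffold of the inner membrane, stood at 15799.5, 16964 and 21655 in EtBr libraries, against 133, 153 and 194 in water libraries (log2 change 6.82 ± 0.18, limma adjusted p = 9.3e-07). MTHSC70-1, the matrix HSP70, had 13039, 12686 and 15848 in EtBr libraries and 1258, 1524 and 1419.9 in water libraries, and its nucleotide exchange factor MGE1 2182, 2579 and 2907 in EtBr and 145, 139 and 184 in water libraries. The chaperonin HSP60 changed less, at 3151, 3235 and 3335 in EtBr libraries and 788, 1366 and 1223 in water libraries (log2 change 1.56 ± 0.20). The small heat shock protein HSP23.5 had 5597, 5839 and 6242 in EtBr libraries, against 130.2, 370.4 and 151 in water libraries. The prohibitin PHB4 stood at 4727, 5391 and 6308 in EtBr and 286, 403 and 475 in water libraries, and the protease LON1 at 3068, 2706 and 2743 in EtBr and 186, 318 and 287 in water libraries. FTSH4, CLPX1 and CLPX2, also mitochondrial proteases or their partners, did not pass.

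Of 29 import components 19 rose and 2 fell (median log2 change 1.08). Isoforms of the same component differed. Of the inner membrane channel protein TIM17, isoform TIM17-1 had 911, 924 and 870.3 in EtBr libraries and 73, 95.9 and 78.5 in water libraries. TIM17-2, the most abundant form in both groups, had 2611, 2852 and 2778 in EtBr libraries and 3054, 2735 and 2968 in water libraries and did not pass. TIM17-3 fell to 93.2, 101 and 68.5 in EtBr libraries, against 206, 234 and 214 in water libraries (log2 change -1.32 ± 0.23). Of the outer membrane receptors, TOM20-4 rose to 3139.5, 3659 and 4181 in EtBr libraries, against 471, 576 and 554 in water libraries, and OM64 to 1609, 1838 and 1868 in EtBr, against 81.5, 127 and 91.5 in water libraries. TIM50, the receptor of the inner membrane, had 1728, 1793 and 1739.6 in EtBr libraries and 225, 265 and 272 in water libraries.

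Nuclear genes for RNA-binding proteins of organelles and for RNA helicases rose more often than all tested genes, while those for mitochondrial complexes differed by complex. The pentatricopeptide repeat and helicase counts cover whole families, whatever the compartment, and do not single out mitochondrial members. Of 385 tested pentatricopeptide repeat proteins, RNA-binding proteins that mostly act in organelles, 216 rose and 40 fell (26 without water library 1), with a median log2 change of 0.92. ELI1, an RNA editing factor, had 1557, 1678 and 1762 in EtBr libraries and 125, 157 and 112 in water libraries, and PPR336 had 1014, 1094 and 1059 in EtBr and 304, 334 and 320.4 in water libraries. PPR4 fell to 1535, 1136 and 923 in EtBr libraries, against 4688, 4481 and 3704 in water libraries. RH9, a mitochondrial RNA helicase, rose to 2815, 2785 and 2619 in EtBr libraries, against 235, 276 and 299.7 in water libraries (limma adjusted p = 1.7e-06), and 28 of 40 tested RNA helicases rose with it while 4 fell. Of 9 nuclear genes for mitochondrial ribosomal proteins 4 rose and none fell, with 1 fall without EtBr library 3 or water library 1 and with edgeR, TMM scaling or a median change set to 0. Of 27 nuclear complex I genes 9 rose (33.3%) and 4 fell (14.8%), with a median log2 change of 0.20. Of 7 nuclear cytochrome c oxidase genes 2 rose (28.6%) and 1 fell (14.3%). These shares lay near or below the 34.5% higher and 27.8% lower of all tested genes. Of 8 nuclear genes for the mitochondrial ATP synthase 7 rose and 1 fell (median 0.64). That fall was lost with the replicate block and without EtBr library 2, EtBr library 3, water library 1 or water library 3. ATP5, the delta subunit of that enzyme, had 4151, 4264 and 3793 in EtBr libraries and 2109, 2225 and 2309 in water libraries. The largest rise of the ATP synthase list, AT2G07671, lies in the stretch of chromosome 2 that copies mitochondrial DNA, where reads cannot be assigned with certainty.

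**Figure D3:**
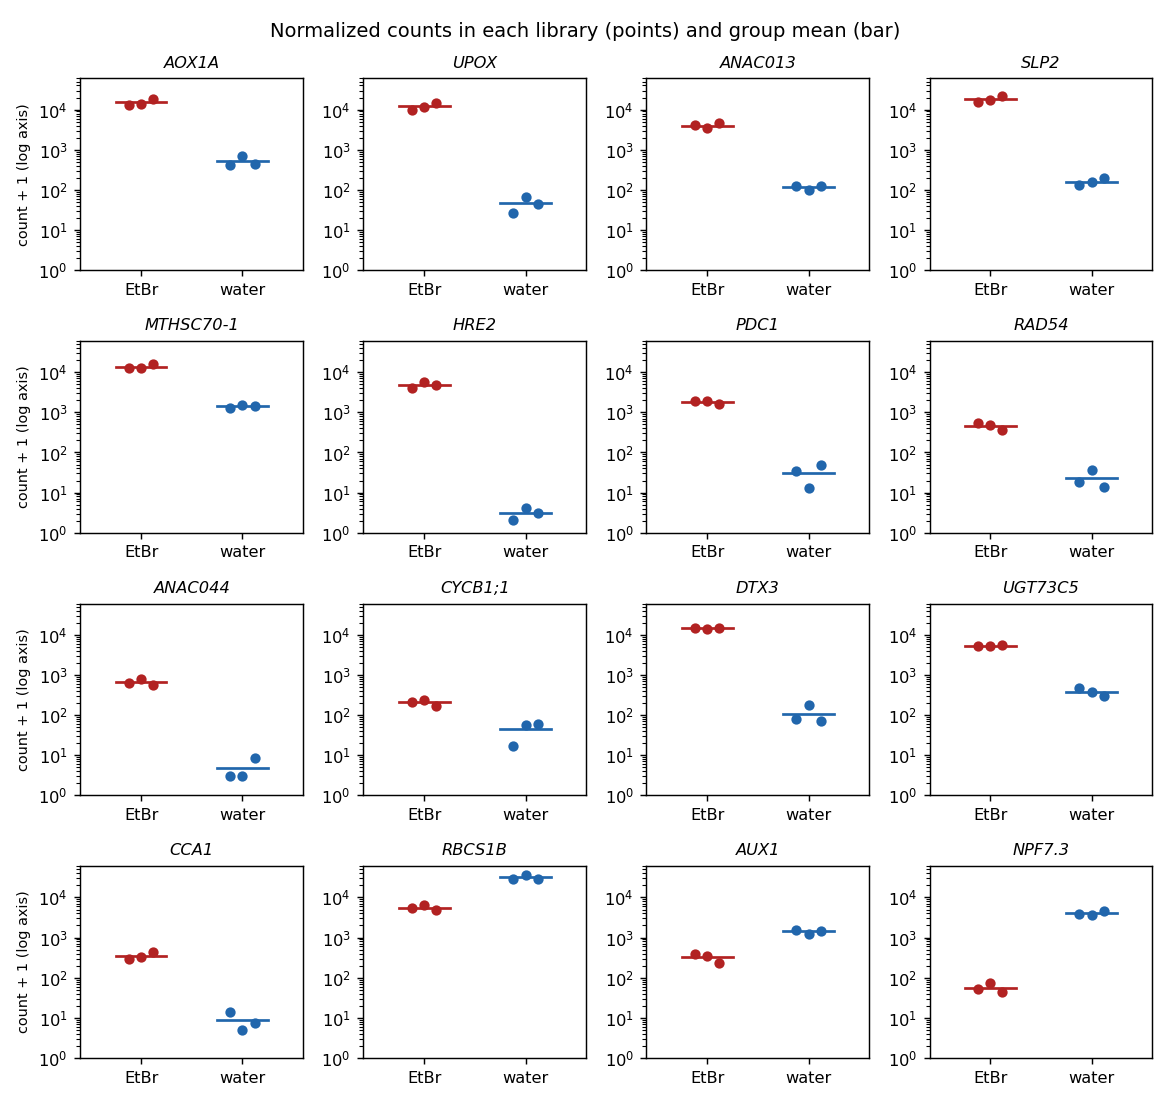
Normalized counts plus 1, on log axes, of 16 genes in each EtBr library (left, red) and water library (right, blue), with the group means as bars. In AOX1A, UPOX, SLP2 and HRE2 the 3 EtBr points lie 10-fold or more above the water points, and in RBCS1B, AUX1 and NPF7.3 they lie below.

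Transcripts of the mitochondrial genome itself rose. Of its 29 tested genes 26 were higher and none was lower (median log2 change 3.99), and its genes took 0.375%, 0.469% and 0.359% of all reads in EtBr libraries, against 0.0109%, 0.0194% and 0.0116% in water libraries. An exact permutation test of that share, two-sided, gave p = 0.1, the smallest that 3 libraries against 3 allow. Most of the reads were ribosomal: RRN26, the large ribosomal RNA, had 43984, 53746 and 44402 in EtBr libraries, against 1122, 2135 and 931 in water libraries, and RRN18, the small one, had 17591, 25604 and 20421 in EtBr and 835, 1134 and 936 in water libraries. Without its 3 ribosomal RNA genes the share was 0.0309%, 0.0363% and 0.0302% in EtBr libraries and 0.00160%, 0.00250% and 0.00188% in water libraries. COX1, the catalytic core of cytochrome c oxidase, had 873, 1071 and 871 in EtBr libraries and 25.4, 20.4 and 14.2 in water libraries (log2 change 5.51 ± 0.26, limma adjusted p = 2.9e-06). COX2 had 230.4, 343 and 358 in EtBr libraries, against 4.23, 13.3 and 14.2 in water libraries. The complex I subunits followed: NAD9 had 100.3, 161 and 183 in EtBr and 7.41, 8.16 and 8.72 in water libraries, NAD7 103, 110.4 and 86.6 in EtBr and 8.47, 9.18 and 2.18 in water libraries. The smallest changes among those called were those of ATP6-2, with 45.7, 51.5 and 39.3 in EtBr libraries and 13.8, 22.5 and 25.1 in water libraries, and of ORF149, with 27.3, 59.8 and 67.5 in EtBr and 12.7, 10.2 and 18.5 in water libraries. The ATP6-2 call was lost without EtBr library 1, EtBr library 2 or water library 1, at log2 changes of 1.14, 1.06 and 0.90.

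These values carry limits. Of the 29 tested genes 15 had a water mean under 10 and could pass the minimum only through EtBr, all 15 of them called higher; of the 14 with a water mean of 10 or more 11 were higher (median log2 change 1.98), and with a mean of at least 50 the list had 13 rises. Ribosomal RNA outside the mitochondrial genome, 7 genes of the table, was also higher, at 0.195%, 0.286% and 0.118% of reads in EtBr libraries, against 0.0402%, 0.0735% and 0.0591% in water libraries; among them the cytosolic 18S gene AT3G41768 had 31802, 48553 and 21407 in EtBr and 8134, 13828 and 10979 in water libraries. The part of this rise of other ribosomal RNA in the result was not tested. The window of chromosome 2 from 3 to 4 Mb, which holds a nuclear copy of mitochondrial DNA, had a median log2 change of 2.35 over 18 tested genes, and reads of the copies cannot be told apart from those of the mitochondrial genome. The mitochondrial 5S RNA, RRN5, was too low to be tested and lay the other way, with 1.76, 0.92 and 3.02 in EtBr libraries and 9.53, 24.5 and 10.9 in water libraries.

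The plastid genome moved less. Of 60 tested plastid genes 12 rose and none fell (median log2 change 0.57), and its share of reads was 0.0246%, 0.0403% and 0.0208% in EtBr libraries, against 0.0168%, 0.0154% and 0.0176% in water libraries (exact permutation p = 0.1). PSBA, the D1 protein of photosystem II, had 696, 1369 and 404 in EtBr libraries, against 311, 181 and 474 in water libraries, with EtBr library 3 inside the range of the water libraries (log2 change 1.28 ± 0.47, limma adjusted p = 0.042). Leaving out EtBr library 1, EtBr library 2, water library 1 or water library 2 ended the PSBA call, with log2 changes of 1.31, 0.83, 1.31 and 0.92. The call was also lost with the replicate block, TMM scaling, a median change set to 0 and a pseudocount of 0.1, at 1.28, 1.23, 1.19 and 1.28. PSBM, another subunit of that photosystem, had 150.4, 181 and 137 in EtBr libraries and 66.7, 61.2 and 47.9 in water libraries. Without EtBr library 2 only 6 plastid genes were called higher, and without water library 3 only 7, while without water library 2 the plastid list had 2 falls. With a mean of at least 50 the list had 7 rises.

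**Figure D4:**
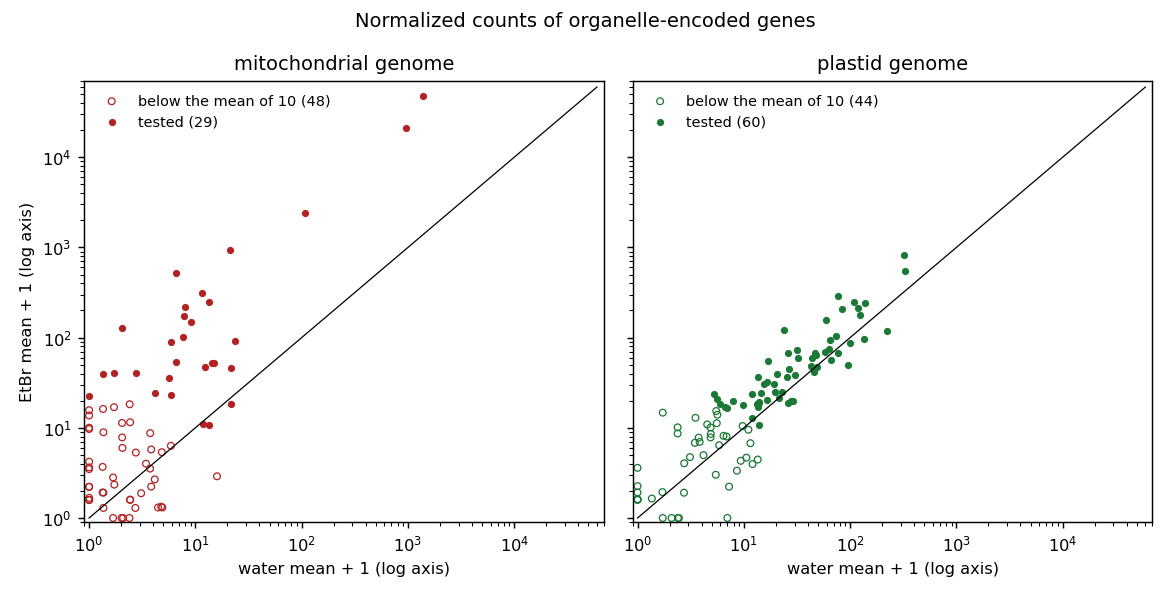
Mean normalized count plus 1 of each organelle-encoded gene in EtBr (vertical) against water (horizontal) libraries, on log axes, with the line of equality; filled points were tested and open points lie below a mean of 10. Tested mitochondrial points mostly lie well above the line, led by RRN26 and RRN18, while plastid points scatter closer to it.

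Nuclear genes for organelle DNA and its transcription went both ways. Of 17 genes for organelle DNA maintenance 10 rose and 1 fell. RECA2, a recombinase targeted to both organelles, had 547, 539.9 and 532 in EtBr libraries, against 66.7, 87.8 and 63.2 in water libraries (log2 change 2.89 ± 0.19), and the gyrase subunit GYRA had 1211, 1173 and 966 in EtBr and 225, 323 and 297 in water libraries. WHY3, a single-strand DNA binding protein, had 591, 608 and 492 in EtBr libraries and 124, 197 and 171 in water libraries, and its relative WHY1 fell to 273, 229 and 139 in EtBr, against 305, 453 and 353 in water libraries. WHY1 was the only fall, and it was lost without EtBr library 2 or 3 or water library 2 or 3 (log2 changes -0.90, -0.54, -0.67 and -0.85). The organelle DNA polymerase POLIB rose to 1293, 1067 and 838 in EtBr libraries, against 464, 528 and 475 in water libraries. RECA1, of the plastid, rose by 0.41 ± 0.13 on the log2 scale, a call lost with the median change set to 0 (0.31) and without EtBr library 2 (0.35) or water library 2 (0.35). MSH1, which restrains recombination of organelle genomes, had 204, 158 and 114 in EtBr libraries and 107, 160.2 and 109 in water libraries and did not pass. All 3 phage-type RNA polymerases rose: RPOTMP, of both organelles, to 1259, 1104 and 958 in EtBr libraries, against 104, 215 and 198 in water libraries, and RPOTM, of mitochondria, to 1348, 1216 and 875 in EtBr, against 377, 523 and 428 in water libraries; RPOTP, of plastids, was the third. Of the 6 sigma factors, which guide the bacterial-type polymerase of the plastid, 5 fell, among them SIGB, SIGC and SIGF (log2 changes -1.14 ± 0.11, -1.68 ± 0.15 and -1.53 ± 0.16), while the stress-responsive SIGE (SIG5) rose to 304, 349 and 775 in EtBr libraries, against 76.2, 60.2 and 64.3 in water libraries, with EtBr library 3 the highest.

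DNA repair genes rose together and none fell. Of 34 tested genes of double-strand break and excision repair 24 rose (median log2 change 1.19). RAD54, a chromatin remodeller of homologous repair, had 529, 471 and 355 in EtBr libraries, against 16.9, 35.7 and 13.1 in water libraries (log2 change 4.41 ± 0.38, limma adjusted p = 3.4e-05), and the poly(ADP-ribose) polymerase PARP2 had 722, 786 and 449 in EtBr and 29.6, 67.4 and 43.6 in water libraries. BRCA1 stood at 193, 154 and 52.4 in EtBr libraries and 11.6, 23.47 and 27.2 in water libraries. All subunits of ribonucleotide reductase in the list, which makes deoxynucleotides, rose: RNR1 to 1379, 1518 and 1018 in EtBr libraries, against 175, 341 and 302 in water libraries, RNR2A to 1079, 1180.0 and 1221 in EtBr, against 260.4, 366 and 245 in water libraries, and TSO2 to 1347, 1486 and 812 in EtBr, against 171, 244 and 288 in water libraries. In RAD54, PARP2, BRCA1, RNR1 and TSO2 EtBr library 3 was the lowest of the EtBr libraries. UVR3, a photolyase, had 812, 725 and 759.5 in EtBr libraries and 951, 910.2 and 683 in water libraries and did not pass.

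Of 20 checkpoint genes 15 rose and 3 fell (median log2 change 1.97). The kinase gene ATR rose to 216, 218 and 160.2 in EtBr libraries, against 56.1, 36.7 and 39.2 in water libraries (log2 change 2.16 ± 0.27), while ATM, at 558, 483 and 379 in EtBr and 352, 439.8 and 321 in water libraries, did not pass. SOG1, the central factor, rose by 0.98 ± 0.19 on the log2 scale, with 524, 423 and 399 in EtBr libraries and 220.1, 193 and 269 in water libraries. Its direct target ANAC044 had 612, 804 and 572 in EtBr libraries, against 2.117, 2.04 and 7.63 in water libraries (log2 change 7.24 ± 0.44, limma adjusted p = 7.8e-06). The kinase WEE1, which holds back entry into mitosis, had 68.6, 68.1 and 58.4 in EtBr and 3.18, 1.02 and 8.72 in water libraries, and the cyclin-dependent kinase inhibitor SMR7 had 101, 113 and 69.5 in EtBr and 13.8, 0 and 13.1 in water libraries. CYCB1;1, the mitotic cyclin that DNA damage is known to induce, had 214, 241 and 170.2 in EtBr libraries and 15.9, 55.1 and 59.9 in water libraries (log2 change 2.42 ± 0.48). TK1A, a thymidine kinase, and RBR1, the retinoblastoma protein, rose by 2.49 ± 0.14 and 1.66 ± 0.14. The inhibitor KRP2 fell to 48.4, 59.8 and 52.4 in EtBr libraries, against 150.3, 90.8 and 154 in water libraries, and the kinase CDKA;1 to 578, 591 and 586 in EtBr, against 998, 979.6 and 1021 in water libraries.

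The element bound by SOG1 is known as a palindrome, CTT followed after any 7 bases by AAG. Its letters occurred on either strand within the 500 bases upstream of 17.75% of all tested nuclear genes, 19.98% of those called higher, 15.62% of those called lower and 17.31% of those that did not pass, and in 8 of 34 repair genes and 6 of 20 checkpoint genes. Other lists held the palindrome too: 7 of 17 hypoxia genes, 5 of 18 of the stimulon and 10 of 47 cell cycle genes. It occurred in 6 of 29 import components, 4 of 31 mitochondrial chaperones and proteases and 2 of 12 alternative respiratory chain genes. Each mitochondrial dysfunction motif of the CAAG form also spells this palindrome, as the match of ANAC044 does. That motif, in either form, was found in 3 of 20 checkpoint genes, 2 of 17 hypoxia genes and 1 of 29 import components. It was found in 0 of 34 repair genes and 0 of 47 cell cycle genes. The stretches of 2 strongly raised genes are printed with the palindrome in capitals.
RAD54, chr3:6658989-6659039, minus strand: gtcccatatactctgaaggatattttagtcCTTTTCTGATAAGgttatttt
ANAC044, chr3:228980-229052, plus strand: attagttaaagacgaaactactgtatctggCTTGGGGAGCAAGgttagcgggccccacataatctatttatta

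Cell cycle genes changed about as often as all tested genes, of which 34.5% rose and 27.8% fell. Of 47 cyclins, kinases and replication licensing genes 17 rose (36.2%) and 11 fell (23.4%), with a median log2 change of 0.37. Among those that rose, PCNA2, the sliding clamp, stood at 548, 567 and 475 in EtBr libraries and 52.9, 82.7 and 102 in water libraries, ORC1B, of the origin recognition complex, at 160.1, 149.9 and 137 in EtBr and 23.3, 18.4 and 15.3 in water libraries, and the helicase subunit MCM6 at 291, 236 and 282 in EtBr and 22.2, 35.7 and 53.4 in water libraries. CYCA1;2 had 717, 611 and 645 in EtBr libraries, against 42.3, 53.1 and 42.5 in water libraries. CYCA1;1 fell to 21.1, 18.4 and 15.1 in EtBr libraries, against 54, 69.4 and 82.8 in water libraries. The D type cyclins CYCD3;1 and CYCD3;2, which act at entry into the cycle, fell as well. CYCD3;1 had 235, 194 and 193 in EtBr libraries and 443, 301 and 347 in water libraries, and CYCD3;2 385, 464 and 563 in EtBr and 1008, 1072 and 921 in water libraries. Without water library 2 or water library 3 the list had 7 falls.

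Histone transcripts of all 5 classes rose. Of 42 tested histone genes 33 rose and 1 fell (median log2 change 2.34), and histone genes took 0.516%, 0.587% and 0.696% of reads in EtBr libraries, against 0.174%, 0.184% and 0.196% in water libraries (exact permutation p = 0.1). Summed over the genes of a class, H4 rose the most, to 22953 ± 5184 in EtBr libraries, against 4283 ± 414 in water libraries (SD, n = 3 each), a ratio of 5.36. H3 stood at 45767 ± 8401 in EtBr libraries and 14515 ± 814 in water libraries, H1 at 11775 ± 1637 in EtBr and 4121 ± 1208 in water libraries, H2B at 12839.8 ± 4008 in EtBr and 4523 ± 108 in water libraries, and H2A at 19072 ± 3757 in EtBr and 9417 ± 479 in water libraries (SD, n = 3 each). The EtBr and water libraries did not overlap in any class, and EtBr library 3 was the highest of the EtBr libraries in each. Of the genes for replacement histone H3.3, AT5G10980 had 16768, 19939 and 25202 in EtBr libraries, against 3852, 3895 and 4145 in water libraries, while AT4G40040, with 8544, 8354 and 8698 in EtBr and 9266, 10575 and 8200.1 in water libraries, did not pass. HTA9, which encodes a replacement H2A.Z, was the single histone gene that fell, to 1315, 1227 and 1396 in EtBr libraries, against 3979, 4069.6 and 3519.8 in water libraries. Histone genes are near copies of each other, so the split between loci within a class is less certain than the class sums.

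**Figure D5:**
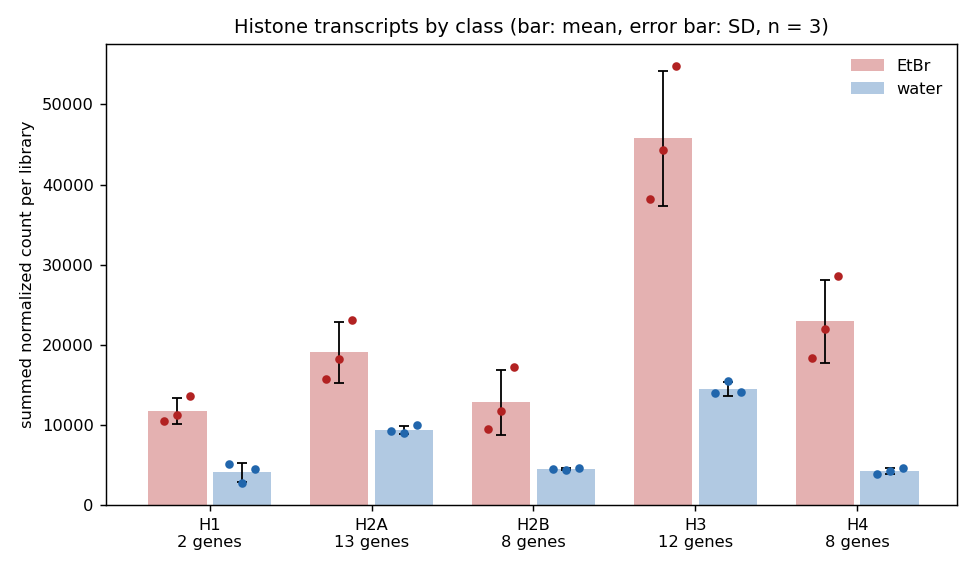
Summed normalized counts of the genes of each histone class in EtBr (red, left) and water (blue, right) libraries, with bars for the mean, error bars for the SD over 3 libraries and points for libraries. Every EtBr point lies above every water point of its class, and the ratio of means is largest in H4, at 5.36.

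Most genes of the low-oxygen response rose. Of 17 genes 13 rose and 1 fell (median log2 change 3.31). The fermentation genes ADH1, PDC1 and LDH, for alcohol dehydrogenase, pyruvate decarboxylase and lactate dehydrogenase, all rose. ADH1 had 1766, 1828 and 1123 in EtBr libraries, against 60.3, 41.8 and 55.6 in water libraries (log2 change 4.86 ± 0.24). PDC1 had 1942, 1905 and 1632 in EtBr and 32.8, 12.2 and 46.9 in water libraries, and LDH 4693, 4862 and 4969 in EtBr and 191, 168 and 239 in water libraries. HB1, a non-symbiotic haemoglobin, stood at 8103, 8674 and 7296 in EtBr libraries and 231, 182 and 288 in water libraries (log2 change 5.12 ± 0.18, limma adjusted p = 1.3e-06). PCO1 and PCO2, the plant cysteine oxidases that mark response factors for destruction, rose by 3.31 ± 0.25 and 3.59 ± 0.28. Of the upstream factors whose stability depends on oxygen, RAP2.2 had 8496, 7946 and 6989.7 in EtBr libraries and 8704, 7569.8 and 7364 in water libraries, RAP2.12 4299, 4180.2 and 3760.3 in EtBr and 4592, 4607 and 4074 in water libraries, both without passing, and RAP2.3 fell to 9023, 9337 and 8479.5 in EtBr, against 42661, 23532 and 25254 in water libraries.

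Protein quality control differed by compartment. Of 19 cytosolic heat shock genes 10 rose and 2 fell (1 fall without EtBr library 1, EtBr library 2 or water library 2), with a median log2 change of 0.80. HSP101, the disaggregase, had 918, 866 and 916 in EtBr libraries and 369, 402 and 347 in water libraries, HSP90.1 3427, 3787 and 4202 in EtBr and 709, 1239 and 748 in water libraries, and the constitutive HSC70-1 fell to 18463, 16846 and 17439 in EtBr, against 34173, 32929 and 31305 in water libraries. HSP70-4 rose by 0.93 ± 0.27 on the log2 scale (limma adjusted p = 0.016), but not without EtBr library 2 or 3 (0.96 and 0.87) or water library 1 or 3 (0.73 and 0.78). Of 21 genes of the unfolded protein response of the ER 8 rose and 11 fell (median -0.49). BZIP60, its transcription factor, rose to 13793, 13733 and 14102 in EtBr libraries, against 2679.7, 2883 and 2650.2 in water libraries, and BIP3, a chaperone it is known to induce, to 188, 143 and 134 in EtBr, against 95.3, 84.7 and 50.1 in water libraries (log2 change 1.04 ± 0.30; 0.90 and not called without EtBr library 1). The folding proteins CNX2 and CRT2 fell by 1.58 and 0.85 on the log2 scale. Without EtBr library 1 or EtBr library 2 the list had 7 falls.

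Proteasome subunits rose almost as a set, 40 of 45 with 1 fall and a median log2 change of 0.96. RPT6B, an ATPase of the regulatory particle, had 2660.2, 2687 and 3103 in EtBr libraries and 458, 598 and 631 in water libraries, RPN3A 2252, 2737 and 2845 in EtBr and 895, 882 and 895 in water libraries. Of 18 autophagy genes 13 rose and none fell (median 0.68), with 1 fall without EtBr library 3 or water library 3 and with edgeR, DESeq2, TMM scaling or a median change set to 0. ATG8E, which tags the growing membrane, had 11193, 11298 and 16907 in EtBr libraries and 2271, 2503 and 2126 in water libraries (log2 change 2.49 ± 0.18), and ATG18A 2466, 2460.3 and 3445 in EtBr and 714, 818 and 837 in water libraries. NBR1, a cargo receptor, rose by 0.64 ± 0.17.

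Families of detoxification enzymes and carriers differed. Of 34 tau and phi glutathione transferases 21 rose and 3 fell (median log2 change 1.70). GSTU9 had 7949.9, 9221 and 15785 in EtBr libraries and 337, 196 and 227 in water libraries, GSTU4 1477, 1413 and 1609 in EtBr and 9.53, 29.6 and 18.5 in water libraries, and the abundant GSTF6 27539.7, 33871 and 57548 in EtBr and 10294, 6411 and 9536 in water libraries. Of 84 UDP-glycosyltransferases, which attach sugars to foreign and native small molecules, 38 rose and 17 fell (median 0.53). UGT73C5, known to glucosylate the toxin deoxynivalenol and brassinosteroids, had 5273, 5213 and 5434 in EtBr libraries and 469.9, 379 and 304 in water libraries (log2 change 3.81 ± 0.16), and UGT74E1 8973, 8360.3 and 10553 in EtBr and 181, 353 and 247 in water libraries. Efflux carriers went both ways, with 20 of 50 MATE genes up and 15 down. DTX1, beside DTX3 on chromosome 2, had 10412, 10316 and 10142 in EtBr libraries and 545, 485 and 376 in water libraries, while DTX36 fell to 85.3, 77.3 and 59.4 in EtBr, against 629.7, 699 and 825 in water libraries. Of 89 ABC transporters 33 rose (37.1%) and 25 fell (28.1%), again near the shares of all tested genes. ABCB4 had 17187, 16396 and 17066 in EtBr libraries and 1255, 1143 and 1276 in water libraries. The abundant ABCG36 had 22755, 21794 and 24462 in EtBr and 28754, 25466 and 25364 in water libraries and did not pass. Of 200 cytochrome P450 genes 75 rose (37.5%) and 59 fell (29.5%), also near those shares. CYP706A6 fell to 32.5, 25.8 and 36.3 in EtBr libraries, against 838, 861 and 645 in water libraries, and CYP707A3, which breaks down abscisic acid, to 1208, 1266 and 1303 in EtBr, against 4566, 4467 and 4724 in water libraries.

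Photosynthesis genes of the nucleus fell in most lists. Of 20 Calvin cycle genes 14 fell and none rose (median log2 change -1.22). RBCS1B, a small subunit of Rubisco, fell to 5608, 6388 and 4807 in EtBr libraries, against 29160.4, 37089.6 and 29397 in water libraries (log2 change -2.51 ± 0.19, limma adjusted p = 1.7e-05), and RBCS3B to 54503, 58072 and 41930.3 in EtBr, against 139664, 156391 and 151636 in water libraries. RBCS1A, the most abundant of the small subunit genes, had 301272, 327520.0 and 215314 in EtBr libraries and 329965, 365106 and 309508 in water libraries and did not pass, nor did Rubisco activase, RCA, with 68379, 72151 and 36268 in EtBr and 104217, 53208 and 82687 in water libraries. CP12-2, which links enzymes of the cycle in the dark, fell to 1426, 1699 and 2221 in EtBr libraries, against 10589.7, 9518 and 10846 in water libraries. Of 37 light-harvesting and photosystem genes 23 fell and 4 rose (median -0.77), and together they took 2.57%, 2.94% and 1.88% of reads in EtBr libraries, against 3.76%, 3.91% and 3.90% in water libraries. LHCA6 fell to 153, 152 and 109.8 in EtBr libraries, against 1582, 1749 and 1769.7 in water libraries, and PSAD-1, of photosystem I, to 4854, 4740.3 and 4466 in EtBr, against 14206, 17091 and 14039 in water libraries. LHCB1.3 had 140049, 166756 and 82222 in EtBr libraries and 180330.0, 145163 and 173558 in water libraries and did not pass. The 4 that rose were LHCB1.1, LHCB2.1, LHCB2.2 and LHCB6. LHCB2.2 had 530.3, 705 and 446 in EtBr libraries and 193, 167 and 137 in water libraries. The LHCB1 and LHCB2 genes are near copies, so their separate values are uncertain.

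Other plastid functions followed. Of 27 nuclear genes for plastid ribosomal proteins 19 fell and 1 rose (median log2 change -0.85), while of 193 genes for cytosolic ribosomal proteins 36 rose and 44 fell, with 23 rises without EtBr library 2. RPS1, of the small plastid subunit, fell to 3230.1, 3638 and 2655 in EtBr libraries, against 10329, 8772 and 10611 in water libraries. Of 21 tetrapyrrole genes, which make chlorophyll and haem, 13 fell and 3 rose. CHLM fell to 2337, 2337 and 1807 in EtBr libraries, against 8736, 6421 and 7399 in water libraries, and CHLI1, of the magnesium chelatase, to 1619.9, 1680.3 and 1435 in EtBr, against 4849, 4379 and 4838 in water libraries. Its partner CHLH rose, to 6704, 6197 and 4481 in EtBr libraries, against 4932, 3423 and 3564 in water libraries (log2 change 0.54 ± 0.20), but not without EtBr library 1 or 2 (0.43 and 0.48) or water library 2 or 3 (0.45 and 0.47), nor with TMM scaling, edgeR, a pseudocount of 0.1 or a median change set to 0. PORA, the protochlorophyllide reductase of dark-grown seedlings, had 208, 244 and 193 in EtBr and 4.23, 0 and 9.81 in water libraries, and CAO, which makes chlorophyll b, 686, 675 and 799.8 in EtBr and 219, 214 and 197 in water libraries. HEMA1, at the start of the pathway, did not pass, with 2946, 2606 and 1987 in EtBr libraries and 3487, 2719.5 and 2485 in water libraries. Among 18 regulators of chloroplast development 10 fell and 3 rose (1 without EtBr library 1, EtBr library 2 or water library 3). GLK1 fell to 539, 469 and 668 in EtBr libraries, against 1148, 954 and 1016 in water libraries.

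Hormone lists differed from each other. Of 42 auxin genes 20 fell and 6 rose (median log2 change -0.53). The influx carrier AUX1 fell to 389.6, 343 and 234 in EtBr libraries, against 1545, 1248 and 1491 in water libraries (log2 change -2.17 ± 0.20, limma adjusted p = 4.8e-05), and the efflux carrier PIN7 fell to 686, 496 and 555 in EtBr libraries, against 1709, 1543 and 1790.4 in water libraries. Of the AUX/IAA repressors, IAA28 fell to 184, 193 and 224 in EtBr libraries, against 991, 1112 and 1156 in water libraries, and IAA10 rose to 287, 363 and 443 in EtBr, against 86.8, 93.9 and 112 in water libraries. Of 16 salicylate and defence genes 11 rose and 1 fell (median 0.72). ICS1, which makes salicylate, had 1909, 2126 and 3050.1 in EtBr libraries and 629, 373 and 543 in water libraries, and PAD3, which completes the antimicrobial camalexin, 1663, 1639 and 1397 in EtBr and 50.8, 7.14 and 57.8 in water libraries. PR1, the usual salicylate marker, was too low to be tested, with 11.4, 0 and 23.2 in EtBr libraries and 6.35, 0 and 0 in water libraries.

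Of 24 jasmonate genes 8 fell and 4 rose (median log2 change -0.42). The synthesis genes AOC3 and OPR3 fell, AOC3 to 111, 132 and 140.0 in EtBr libraries, against 722, 875 and 1308 in water libraries, and OPR3 to 130.2, 143 and 169 in EtBr, against 576, 679.6 and 795 in water libraries. VSP2, a storage protein that jasmonate induces, rose to 44.9, 50.6 and 33.2 in EtBr libraries, against 0, 6.12 and 2.18 in water libraries, and the defensin PDF1.2 to 14.9, 23.9 and 21.2 in EtBr, against 0, 4.08 and 0 in water libraries, both still low. Of 17 ethylene genes 5 rose and 7 fell, with 3 rises without EtBr library 1, EtBr library 3 or water library 2. ACS2, a synthase of the ethylene precursor, rose to 1865, 1759 and 2561 in EtBr libraries, against 88.9, 30.6 and 43.6 in water libraries, while EBF1, which degrades the ethylene factor EIN3, fell to 2865, 2379 and 2356 in EtBr, against 10451, 8544 and 9678 in water libraries. Of 20 abscisic acid and dehydration genes 5 rose and 6 fell: ABI5 had 530.3, 633 and 411 in EtBr libraries and 127, 139 and 124 in water libraries, ERD10 333, 387 and 336 in EtBr and 1565, 2105 and 1558 in water libraries. ABF3 rose by 0.78 ± 0.18, and RD29A, with 557, 521 and 334 in EtBr libraries and 966, 782 and 328 in water libraries, did not pass, although without water library 3 RD29A was called lower (log2 change -0.92).

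Immune receptors of the NB-ARC class fell, 42 of 69 with 5 rises and a median log2 change of -0.90. RLM3, a gene of resistance to fungi, had 2273, 2195 and 2750.0 in EtBr libraries and 9346, 6316 and 6533 in water libraries, and AT1G62630 65.1, 53.3 and 46.3 in EtBr and 515, 462 and 385 in water libraries. Of the transcription factor families, 50 of 85 NAC genes rose and 8 fell (5 without EtBr library 1, water library 1 or water library 3), with a median of 1.17, while 14 of 100 bHLH genes rose and 36 fell (median -0.40). WRKY genes (18 up and 15 down of 63, 24 down without EtBr library 3), AP2/ERF genes (45 and 43 of 119) and MYB-domain genes (50 and 53 of 158) were nearly even. NAC062, a membrane-bound factor of the cold and ER stress responses, fell to 1422, 1392 and 1547 in EtBr libraries, against 5882, 6795 and 5366 in water libraries. WRKY75 rose to 1756, 1831 and 3007 in EtBr libraries, against 103, 109 and 171 in water libraries, and WRKY53 fell to 489, 425 and 401 in EtBr, against 1743, 1989.9 and 1725 in water libraries. Of 914 protein kinases 258 rose (28.2%) and 298 fell (32.6%). Of the MYB-domain genes 31.6% rose and 33.5% fell, beside 34.5% and 27.8% of all tested genes.

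Root barrier and wall genes fell. Of 21 Casparian strip and suberin genes 10 fell and 2 rose (median log2 change -1.14). CASP1, the scaffold of the strip, fell to 68.6, 90.13 and 63.5 in EtBr libraries, against 293, 219 and 315 in water libraries, and FAR4, of suberin synthesis, to 3.52, 9.2 and 4.03 in EtBr, against 54, 56.1 and 68.7 in water libraries; FAR1, its relative, rose to 899.6, 907 and 979 in EtBr, against 187, 151 and 151 in water libraries. Of the 8 markers of endodermis and stele 5 fell and none rose, and their summed level was 1295, 1224 and 1094 in EtBr libraries, against 3242, 2684 and 3396 in water libraries; its part in the fall of the list was not tested. Of 14 genes of cellulose and wall synthesis 9 fell and 1 rose (median -0.96), the rise being lost without any 1 of 5 libraries, all but EtBr library 3. CESA3, a cellulose synthase of the growing wall, fell to 1761, 1495 and 1147 in EtBr libraries, against 6607, 5009 and 5212 in water libraries, and COB, which orients cellulose, to 928, 919 and 928 in EtBr, against 2635, 2634 and 2580.4 in water libraries. Of 22 root hair genes 7 rose and 6 fell, with 4 rises and 3 falls without EtBr library 2 and 2 falls without water library 3. Beside the 34.5% and 27.8% of all tested genes, this was 31.8% and 27.3% of the root hair genes. RSL4, their master regulator, had 68.6, 75.4 and 89.7 in EtBr libraries and 16.9, 20.4 and 30.5 in water libraries, and CSLD3, needed for tip growth, fell to 398, 391 and 420.0 in EtBr, against 1185, 1249 and 1154 in water libraries.

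Markers of other cell types differed, and their small counts are to be read beside the 34.5% higher and 27.8% lower of all tested genes. The vasculature markers (14.3% higher, 28.6% lower) and those of root cap and root uptake (16.7% higher, 0% lower) lay near or below these shares. Of 6 guard cell markers 3 fell and none rose (1 rise without EtBr library 1), with sums of 410, 442 and 456 in EtBr libraries, against 978, 1029.6 and 1073 in water libraries, and of 3 tested shoot meristem markers CLV1 and KNAT1 fell. Of 8 root hair and epidermis markers 4 rose and none fell (2 rises without EtBr library 1 or water library 1, 1 without EtBr library 2, and 1 fall without water library 1 or with DESeq2), with sums of 673, 849 and 709 in EtBr libraries, against 273, 295 and 804 in water libraries, water library 3 lying within the EtBr range. Of 7 vasculature markers 1 rose and 2 fell, with 2 rises without EtBr library 3, water library 1 or water library 3, with the replicate block and under 4 other settings. Of 6 markers of root cap and root uptake, IRT1 among them, 1 rose and none fell, and IRT1 was called lower under several alternatives given below. The last list spread widely within groups, at 9224, 9986 and 22659 in EtBr libraries, against 25939, 12015 and 21239 in water libraries. Their part in the other results was not tested.

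Uptake and assimilation genes were mixed. Of 20 iron genes 5 rose and 8 fell. IRT1, the root iron importer, had 48.4, 17.5 and 9.07 in EtBr libraries and 47.6, 46.9 and 275 in water libraries, with water library 3 alone high, and did not pass. It was called lower in 9 of 15 alternatives, namely edgeR (log2 change -2.31), DESeq2 (-2.29), TMM scaling (-2.09), a mean of at least 50 (-2.04), a median change set to 0 (-2.14), a pseudocount of 5 (-1.83), and without EtBr library 1 (-2.66), water library 1 (-2.46) or water library 2 (-2.47). FER3, a ferritin, fell to 532, 588 and 430.1 in EtBr libraries, against 1051, 1502 and 1497 in water libraries, and BTS, a ubiquitin ligase that restrains iron uptake, rose to 2690.1, 2335 and 2323 in EtBr, against 1754, 1465 and 1251 in water libraries. Of 17 nitrogen and sulfur genes 4 rose and 6 fell. The sulfate reduction enzymes APR1 and APR3 rose, APR1 to 2547, 2723 and 2105 in EtBr libraries, against 137, 96.9 and 243 in water libraries, and APR3 to 2859, 2988 and 2178 in EtBr, against 157, 253 and 283 in water libraries. SULTR1;2, a sulfate importer of roots, fell to 342, 351 and 546 in EtBr libraries, against 3146, 1039.8 and 1800.2 in water libraries. GLN2, the glutamine synthetase of the plastid, fell to 8813, 8592 and 5966 in EtBr libraries, against 42575, 36180.4 and 40966 in water libraries, and nitrate reductase NIA1 rose to 9082, 7900.5 and 6827 in EtBr, against 3348, 2608 and 3589.5 in water libraries. NRT2.1, a nitrate importer, spread from 165 to 917 among EtBr libraries and from 23.47 to 374 among water libraries and did not pass.

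Clock genes went both ways. Of 16 tested 9 rose and 5 fell. CCA1, which peaks at dawn, had 286, 335 and 446 in EtBr libraries, against 12.7, 4.08 and 6.54 in water libraries (log2 change 5.44 ± 0.41, limma adjusted p = 1.8e-05), and LHY 130.2, 138 and 194 in EtBr and 22.2, 17.3 and 6.54 in water libraries. PRR9, of the morning, had 196, 191 and 279 in EtBr libraries and 13.8, 4.08 and 5.45 in water libraries. TOC1, of the evening, fell to 3115, 2724 and 2576 in EtBr libraries, against 5257, 5303 and 4289 in water libraries, and ELF3 to 1252, 1056 and 1122 in EtBr, against 2867, 3396 and 2569.6 in water libraries, but GI and LUX, also of the afternoon and evening, rose by 2.41 ± 0.15 and 1.41 ± 0.13. The labels do not say at what hour each group was collected.

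Of 12 flavonoid genes 4 rose and 5 fell. The early gene CHS, chalcone synthase, fell to 446, 409 and 273 in EtBr libraries, against 1391, 1211 and 2981 in water libraries, while the late anthocyanin genes were near 0 in water seedlings: DFR had 21.1, 37.7 and 55.4 in EtBr libraries and 0, 0 and 2.18 in water libraries, and UGT79B1 25.5, 33.1 and 22.2 in EtBr libraries and no water read. Of 16 glucosinolate genes 3 rose and 6 fell, with 5 rises without water library 3 and 1 without any other library but EtBr library 3. MYB28, a regulator of the methionine-derived compounds, fell to 73, 42.3 and 18.1 in EtBr libraries, against 489, 458 and 788 in water libraries. BCAT4, an enzyme of the same branch, had 595, 686 and 532 in EtBr libraries and 34.9, 33.7 and 694 in water libraries, water library 3 lying above every EtBr library. Its call (log2 change 2.66 ± 1.02) was lost with edgeR (1.22), TMM scaling (2.61), a median change set to 0 (2.57), no filter or a pseudocount of 0.1, and without any 1 library other than water library 3, and it was 4.09 without that library. Of 14 senescence genes 7 rose and 5 fell. NAP, a NAC factor of leaf senescence, had 1886, 1895 and 2121 in EtBr libraries and 296, 296 and 291 in water libraries, and SAG12, the usual late marker, 65.1, 32.2 and 42.3 in EtBr libraries and no water read. DIN1, a dark-induced gene, fell to 10786, 12114 and 20339.6 in EtBr libraries, against 36605, 41139.8 and 31419 in water libraries.

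Many genes were read in EtBr seedlings alone. Of the tested genes 778 had no read in any water library and 1 had none in any EtBr library; a gene without water reads could pass the minimum of 10 only by being high in EtBr, so the count follows in part from that minimum. Their EtBr means had a median of 39.3 and reached 1846, 144 of them had an EtBr mean of at least 100, and against 3 reads over the water group their folds were at least 19.0. By annotation 648 were protein-coding, 33 were long non-coding RNAs, and 87 had no biotype in the table. Single-exon genes were 34.5% of the 690 with an exon count, beside 17.1% of all 21579 tested genes with one. The latter span all levels, and genes of a like level were not compared. The highest was ASK5, a SKP1-like gene, with 2102, 1901 and 1535 in EtBr libraries, and CYP96A5 had 755, 714 and 1222 in EtBr libraries. ASK5 was chosen for mention after its value was seen.

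Gene families known mostly from flowers and seeds were among them. Of 47 tested MADS-box genes, regulators mostly of flower and seed development, 29 rose and 8 fell (5 falls without EtBr library 2 or 3), and 17 had no water read. AGL99 had 313, 532 and 316 in EtBr libraries and no water read, and AT1G17310 417, 476 and 598 in EtBr libraries, against 5.29, 4.08 and 5.45 in water libraries. SVP, a MADS-box repressor of flowering that seedlings do express, fell to 379, 346 and 427 in EtBr libraries, against 1185, 1408 and 1266 in water libraries. Of 77 tested sequences derived from transposons 46 rose, 11 fell (7 without EtBr library 2 or 3, 6 without water library 1) and 21 had no water read, and all such sequences took 0.113%, 0.108% and 0.104% of reads in EtBr libraries, against 0.0516%, 0.0519% and 0.0486% in water libraries. Small nuclear RNAs of the spliceosome also rose, 13 of 14 tested: U2.4 had 585, 621 and 589 in EtBr libraries and 10.6, 3.06 and 8.72 in water libraries. Another 18 lay below the minimum, and 3 of those tested had no water read. In all 3 families members without water reads could pass the minimum only through EtBr, so the counts follow in part from it. With a mean of at least 50 there were 7 rises of small nuclear RNAs, 22 of transposon-derived sequences and 14 of MADS-box genes (4 falls). Seed markers summed to 315, 345 and 394 over 10 genes in EtBr libraries, against 0, 8.16 and 3.27 in water libraries, with 7 of the 10 at 0 in every water library. All 5 tested seed markers were higher, but 4 had no water read and could pass the minimum only through EtBr: SESA1, a storage albumin, had 80.9, 121 and 147 in EtBr libraries and OLEO2, an oleosin, 96.7, 92 and 125 in EtBr libraries, both without a water read. Of 8 flower organ markers 4 were tested, and 2 of these rose (1 with a mean of at least 50) and 1 fell. The flower organ list summed to 361, 402 and 274 in EtBr libraries, against 303, 302 and 228 in water libraries, so the groups overlapped. The 9 pollen and anther markers went both ways, and their summed level was 711, 683 and 703 in EtBr libraries, against 1166, 1358 and 879 in water libraries. Of the 5 tested, VGD1 and PPME1 rose, and TPD1 and MYB65 fell; 1 fall remained without EtBr library 2 or 3 or any 1 water library. VGD1, with 40.5, 36.8 and 28.2 in EtBr libraries, and PPME1 had no water read and could pass the minimum only through EtBr, while TPD1, which specifies the anther tapetum, had 310.4, 349 and 386 in EtBr libraries and 836, 1091 and 623 in water libraries.

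Along the nuclear chromosomes the median log2 change was above 1 in 3 of 121 windows of 1 Mb and lay between -0.87 and 0.59 in the others. The 3 windows were at 3 to 4 Mb of chromosome 2, described above, at 13 to 14 Mb of chromosome 3 (2.86 over 11 tested genes) and at 11 to 12 Mb of chromosome 5 (4.98 over 11 tested genes, 9 of them higher). These windows were picked out after their values were seen.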

How the data were processed

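NEBNext Ultra libraries were made from total RNA of whole seedlings, per the labels' protocols. The 10 ribosomal RNA genes of the table took 0.568% of reads on average in EtBr libraries, against 0.0696% in water libraries, so little ribosomal RNA was counted. How RNA was selected or mapped may bear on the values of ribosomal and organelle transcripts, and its part was not tested. The submitters' processing notes name HTSeq 0.6.1 and DESeq 1.18.0 beside TopHat2 2.0.12, Bowtie2 2.2.3 and CASAVA 1.8; neither genome build nor strand setting is stated there or in the files. The authors deposited counts divided by a size factor per library, a signal in normalized counts, beside their own log2 fold changes and adjusted p-values, all in the authors' deposited table.

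Genes with a mean of at least 10 were tested with limma 3.58.1 (trend, R 4.3.3) on log2(value + 1), a scale that understates changes of low genes, with Benjamini-Hochberg adjustment over 21937 genes and a threshold of 0.05. Whole reads were recovered from the steps of the values for edgeR 4.0.16 and DESeq2 1.42.0, since 100% of values came out whole within 0.001; these called 7351 and 7629 genes higher, 6234 and 6127 lower. Floors of 3 reads over a group cover counting error only. Scripts were tested on simulated data. Gene coordinates and promoter sequences come from RefSeq (TAIR10.1), by locus identifier.

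Members, gene lists and tests were chosen with earlier results of these data known. Named genes are the 10 largest rises and falls with a mean of at least 50, for each list the 3 called members with the smallest adjusted p in each direction and the 2 with the highest level, and genes fixed by name. ANAC016, AT12CYS-2, HSP23.5, LHY, LON1, LUX, MCM6, NDA1, NDB2, PCO1, PCO2, PHB4, PRR9, RAP2.12 and UGT74E2 were chosen after their values were seen. Alternatives were another pseudocount, filter, scaling or tool, a replicate block, and each library left out; the authors' adjusted p was added after seeing the data. The doxycycline table was not analysed here. Some members of the lists are not reported here by name.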

Additional observations from a re-analysis of the deposited data

Results flagged for a closer look

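Genes with a mean under 10 entered no test, yet they carried more reads in EtBr libraries: 0.200% of all reads on average, against 0.0465% in water libraries. Among them, 1806 genes had reads in all 3 EtBr libraries and in no water library, and 40 had reads in all 3 water libraries and in no EtBr library. These values lie outside the tested genes and are given as a description.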

How the results depend on the processing

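The count of genes lower by at least 2-fold was 3660, against 6091 without that limit. Under the other alternatives between 5423 and 9906 genes were called higher and between 4494 and 6675 lower, and leaving out 1 library gave 6582 to 7244 higher and 5184 to 5917 lower. Setting the median change to 0 gave 7042 higher and 6675 lower, and a mean of at least 50 gave 5423 and 5615. The authors' adjusted p in the authors' deposited table gave 7486 and 6054.

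The replicate numbers did not pair the libraries: deviations of libraries with the same number correlated at -0.138, 0.117 and -0.0153. With the replicate block 7402 genes were called higher and 5888 lower, 13044 of them called in both fits and 0 with the opposite sign.

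Of 2640 counts of list members compared across alternatives 158 moved by more than 1.5 times, many of them small counts. GUN1 and RAP2.2, which were not called, changed sign without EtBr library 3 or water library 1; leaving out 1 library gave log2 changes of -0.11 to 0.11 for GUN1 and -0.076 to 0.064 for RAP2.2, and the cause was not tested. The 3 libraries a group and the missing dose limit all comparisons.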
